A study of Mus musculus with 12 samples.

Results

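Bile acid synthesis and conjugation was followed through 10 genes, which were chosen by name: Cyp7a1, Cyp7b1, Cyp8b1, Cyp27a1, Cyp39a1, Akr1d1, Hsd3b7, Baat, Slc27a5 and Amacr. All 10 were among the 53715 genes counted, and 9 of them were among the 17779 genes that had more than 10 counts in at least 1 library and were tested. RNA was sequenced from 3 groups of primary mouse liver cells of the strain C57BL/6JOlaHsd, with 4 biological replicates in each group and 12 libraries in all. Hepatoblasts were cells of E14.5 embryonic livers that carried the surface protein Dlk1, taken from pooled livers by magnetic sorting and lysed straight away. Diff. hepatocytes were E14.5 Dlk1+ cells kept for 4 days on fibronectin in a differentiation medium that contained Matrigel, serum, insulin and the glucocorticoid dexamethasone. Mature hepatocytes came from collagenase-perfused livers of adult males of 8 to 12 weeks and were lysed without culture. Diff. and Mature hepatocytes therefore differed in age, sex, culture and dexamethasone at once, and these cannot be told apart in a comparison between them.

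Bile acids are made from cholesterol in hepatocytes. In the classic route, CYP7A1 adds a hydroxyl group at carbon 7 of cholesterol itself, and this is the rate-limiting step. In the alternative routes the side chain is oxidised first, and CYP7B1 or CYP39A1 then adds the hydroxyl group at carbon 7 of the resulting oxysterol. HSD3B7 and AKR1D1 modify the sterol rings, CYP8B1 directs the product toward cholic acid, and CYP27A1, AMACR and peroxisomal enzymes oxidise and shorten the side chain. SLC27A5 activates bile acids with coenzyme A, and BAAT joins them to taurine, the main partner in mice.

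The libraries held 19581551 to 25216977 counts on genes. Levels are given as CPM, counts per 1000000 counts of a library after TMM factors scaled it for composition, as mean ± SD over 4 libraries. The factors were 1.23 to 1.44 in Hepatoblasts, 1.03 to 1.08 in Diff. hepatocytes and 0.677 to 0.778 in Mature hepatocytes. A gene was called where edgeR's quasi-likelihood test gave a Benjamini-Hochberg adjusted p under 0.01 over all 17779 genes and the log2 fold change (log2FC) was over 1 in either direction. In these bulk samples, fewer cells of a type and less RNA per cell cannot be told apart. Markers of the labelled cell types were examined. Dlk1 was the protein used for sorting, so that its level in Hepatoblasts is not an independent check of the label. Dlk1 was at 3523 ± 759 CPM in Hepatoblasts, 94.2 ± 4.55 in Diff. and 4.19 ± 1.5 in Mature hepatocytes, and albumin (Alb) was at 37757 ± 8303, 40226 ± 2957 and 95187 ± 16527 CPM. The fetal protein gene Afp was still at 18609 ± 2091 CPM in Diff. hepatocytes, beside 39337 ± 8265 in Hepatoblasts and 42.3 ± 11.2 in Mature hepatocytes. Between Diff. hepatocytes and Hepatoblasts, 3 of the 4 hepatoblast markers were called lower and 5 of the 8 hepatocyte markers higher. None of these markers was called in the opposite direction. The shares over all genes tested were 14.9% called higher and 14.0% called lower in this comparison. The hepatoblast marker H19 was nevertheless at 19222 to 24537 CPM in Diff. hepatocytes, beside 10392 to 18040 in Hepatoblasts. The hepatocyte marker Ttr was at 905 to 1143 CPM, beside 1448 to 2507.

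Of the 9 tested enzymes, 7 were higher in Diff. hepatocytes than in Hepatoblasts and none was lower, with Cyp7b1 and Amacr not called. The median log2FC of the 9 was 3.66, beside -0.01 over all genes tested. Over all genes, 14.9% were called higher and 14.0% lower in this comparison. In Mature hepatocytes against Hepatoblasts all 9 were called higher, with a median log2FC of 6.48 beside -0.15 over all genes, of which 20.1% were called higher and 24.7% lower. Between Diff. and Mature hepatocytes, 7 enzymes were lower in Diff. hepatocytes, Cyp39a1 was higher and Akr1d1 was not called. The median log2FC was -2.46 beside 0.09 over all genes, of which 20.2% were called higher and 15.6% lower. The comparisons share libraries in pairs, so that their counts are not independent.

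**Figure D1:**
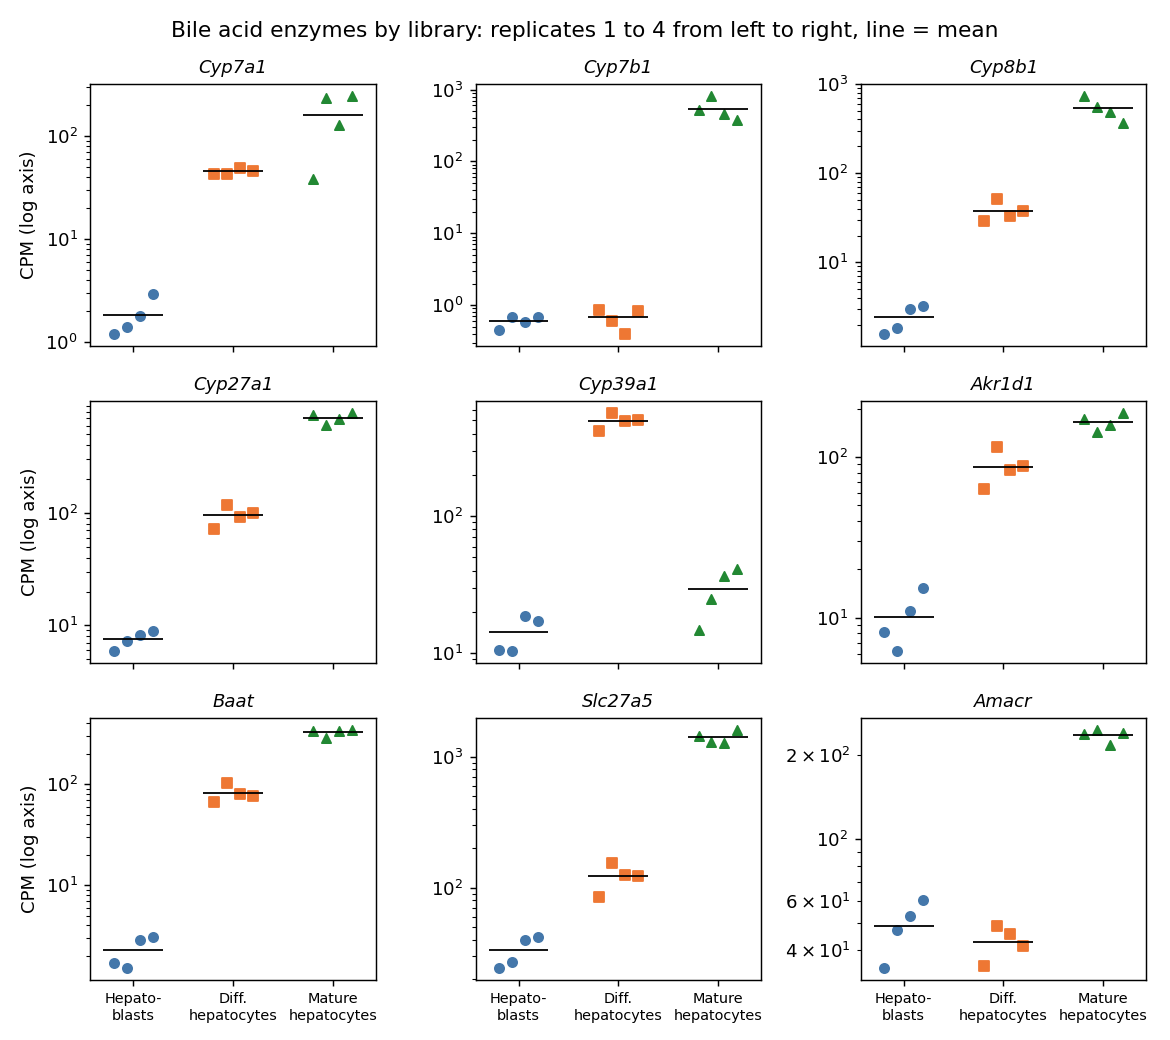
CPM of the 9 detected enzymes in each of the 12 libraries, on a log axis with its own range in each panel. Points are replicates 1 to 4 from left to right and the line is the mean of 4 libraries. Cyp39a1 is highest in Diff. hepatocytes, Cyp7b1 is high in Mature hepatocytes alone, and Mature hepatocytes replicate 1 lies below the Diff. hepatocytes for Cyp7a1.

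The 3 enzymes that hydroxylate carbon 7 did not move as one. Cyp7a1 (ENSMUSG00000028240, chr4:6265612-6275633, minus strand, GRCm38) had 1.19, 1.40, 1.78 and 2.92 CPM in the 4 Hepatoblast libraries. The Diff. hepatocytes had 43.3, 43.0, 49.5 and 45.8 CPM. Mature hepatocytes had 38.3, 234, 128 and 249 CPM in replicates 1 to 4. Diff. hepatocytes were thus close to each other and all above the Hepatoblasts, whereas the Mature hepatocytes spread widely and replicate 1 fell below every Diff. hepatocyte library. Cyp7a1 was 24.9-fold higher in Diff. hepatocytes than in Hepatoblasts (log2FC 4.64, SE 0.51, adjusted p = 4.50e-06, edgeR) and 89.1-fold higher in Mature hepatocytes (log2FC 6.48, SE 0.54, adjusted p = 1.46e-07, edgeR). Against Mature hepatocytes, the Diff. hepatocytes were lower by the fit (log2FC -1.84, SE 0.42, adjusted p = 0.00181, edgeR), but the groups overlapped. A two-sided exact permutation test of the log2 CPM values gave p = 0.143. The smallest p that 4 against 4 libraries allow in that test is 0.0286. Without Mature hepatocytes replicate 1 the log2FC was -2.17, and the call was lost in 4 of 23 alternative analyses, those with the fold threshold inside the test or without TMM factors.

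Cyp7b1 (ENSMUSG00000039519, chr3:18071950-18243338, minus strand), which acts on oxysterols with a hydroxylated side chain, was near the limit of detection in both embryo-derived groups. It had 14, 23, 18 and 21 counts in the Hepatoblast libraries and 20, 14, 9 and 17 counts in the Diff. hepatocytes, which is 0.604 ± 0.114 and 0.676 ± 0.219 CPM. In Mature hepatocytes it stood at 526, 825, 451 and 373 CPM. The difference between Diff. hepatocytes and Hepatoblasts was within the spread of the libraries (log2FC 0.15, 95% interval -0.67 to 0.98, adjusted p = 0.748, edgeR), and its sign turned when library totals replaced the TMM factors. Mature hepatocytes were 891-fold above Hepatoblasts (log2FC 9.80, SE 0.32, adjusted p = 2.26e-11, edgeR) and 800-fold above Diff. hepatocytes (log2FC of Diff. against Mature hepatocytes -9.64, SE 0.32, adjusted p = 5.24e-11, edgeR). In size these were the largest log2FCs of the 9 enzymes in both comparisons with Mature hepatocytes.

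Cyp39a1 (ENSMUSG00000023963, chr17:43667425-43751431, plus strand) encodes the hydroxylase with a preference for oxysterols hydroxylated at carbon 24. It had 10.6, 10.4, 18.6 and 17.3 CPM in Hepatoblasts. The 4 Diff. hepatocyte libraries had 419, 570, 496 and 500 CPM. In Mature hepatocytes it had 14.8, 24.7, 36.5 and 41.3 CPM. Every Diff. hepatocyte library was therefore above all 8 others, and Cyp39a1 was the single enzyme of the set that was called higher in Diff. than in Mature hepatocytes. It was 34.9-fold higher in Diff. hepatocytes than in Hepatoblasts (log2FC 5.12, SE 0.32, adjusted p = 2.69e-08, edgeR) and 16.9-fold higher than in Mature hepatocytes (log2FC 4.08, SE 0.31, adjusted p = 8.54e-08, edgeR). Mature hepatocytes and Hepatoblasts overlapped, and the log2FC of 1.05 between them lay just past the threshold (SE 0.28, adjusted p = 0.00432, edgeR, exact permutation p = 0.0857). That call was lost in 9 of 23 alternative analyses, among them those without Hepatoblasts replicate 1 (0.93) or 2 (0.91) and without Mature hepatocytes replicate 3 (0.91) or 4 (0.83).

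Divided by exon length, the 3 transcripts can be set against each other. Their summed level was 5.38 ± 1.57 CPM per kb in Hepatoblasts, 174 ± 20.1 in Diff. and 299 ± 97.1 in Mature hepatocytes. Cyp39a1 made up 86.5% ± 2.67 of this sum in Hepatoblasts, 93.5% ± 0.831 in Diff. and 3.50% ± 1.92 in Mature hepatocytes. Cyp7b1 made up 5.46% ± 1.66, 0.184% ± 0.0745 and 83.3% ± 10.1 in the same order. Cyp7a1 held 8.05% ± 1.78, 6.32% ± 0.801 and 13.2% ± 8.50. Diff. hepatocytes thus kept the order of the Hepatoblasts at a higher sum, and Cyp7b1 was the most abundant of the 3 in each Mature hepatocyte library, at 70.2% to 94.5%.

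**Figure D2:**
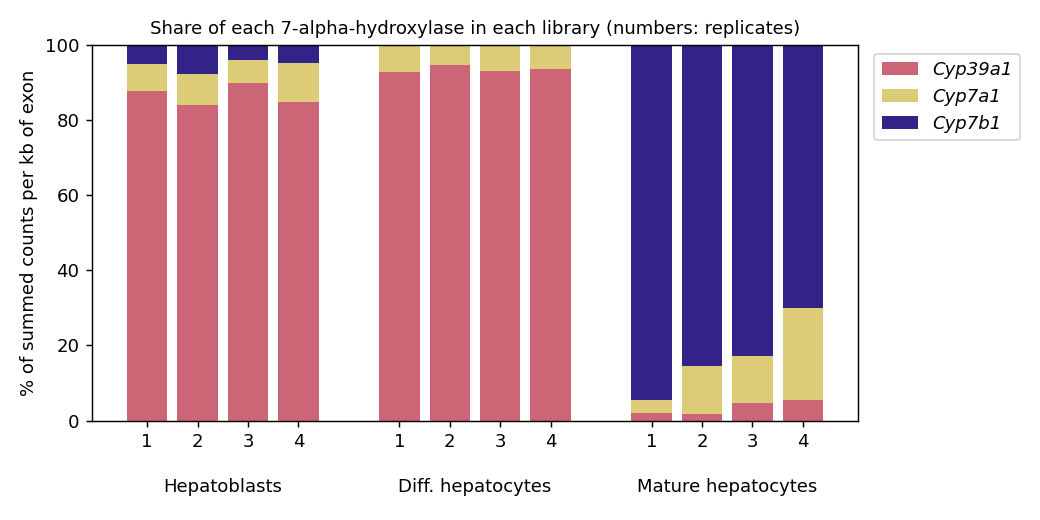
Share of Cyp39a1, Cyp7a1 and Cyp7b1 in their summed counts per kb of exon, in percent, for each library (replicates 1 to 4 in each group). Cyp39a1 fills 83.9% to 94.6% of the bar in the 8 embryo-derived libraries and 1.82% to 5.51% in the 4 Mature hepatocyte libraries.

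The ratio of Cyp7a1 to Cyp7b1 within a library does not depend on the scaling between libraries. Its log2 value was 1.5 ± 0.43 in Hepatoblasts, 6.08 ± 0.57 in Diff. and -2.00 ± 1.32 in Mature hepatocytes (SD, n = 4, with 0.5 added to each count). No 2 groups overlapped, and each of the 3 differences had the smallest exact permutation p of 0.0286 (two-sided, adjusted 0.0367 over the 9 ratio tests). Cyp7b1 and Cyp39a1 are known to differ between male and female mouse livers, Cyp7b1 being higher in males and Cyp39a1 in females. Mature hepatocytes came from males, with Xist at 3.40 to 4.73 CPM and the Y-linked gene Ddx3y at 71.6 to 97.0 CPM. The embryo-derived libraries held RNA of both sexes, with Xist at 287 to 660 CPM and Ddx3y at 11.3 to 40.9 CPM. The parts of sex and age in the differences between Hepatoblasts and Mature hepatocytes cannot be told apart. Between Diff. and Mature hepatocytes, culture and dexamethasone differed as well, and none of these can be told apart.

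Cyp8b1 (ENSMUSG00000050445, chr9:121914356-121916305, minus strand), the 12-alpha-hydroxylase whose activity sets the share of cholic acid, is a gene of 1 exon. In Hepatoblasts it had 1.58, 1.85, 3.01 and 3.25 CPM. The Diff. hepatocytes had 29.2, 51.2, 33.1 and 37.8 CPM, and Mature hepatocytes had 742, 546, 490 and 365 CPM. The 3 groups did not overlap and rose in that order. The log2FC was 3.97 for Diff. hepatocytes against Hepatoblasts (SE 0.29, adjusted p = 9.97e-08, edgeR) and -3.82 for Diff. against Mature hepatocytes (SE 0.27, adjusted p = 4.86e-08, edgeR). The log2 ratio of Cyp8b1 to Cyp7a1 was 0.43 ± 0.25 in Hepatoblasts, -0.29 ± 0.39 in Diff. and 2.0 ± 1.62 in Mature hepatocytes. Diff. hepatocytes differed from Mature hepatocytes in this ratio by -2.29 (exact permutation p = 0.0286, adjusted 0.0367), and the other two differences had p = 0.0571. Mature hepatocytes replicate 1, with the highest Cyp8b1 and the lowest Cyp7a1 of its group, had a ratio of 4.28 against 0.56 to 1.93 in the other replicates, and without it the difference was -1.53.

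**Figure D3:**
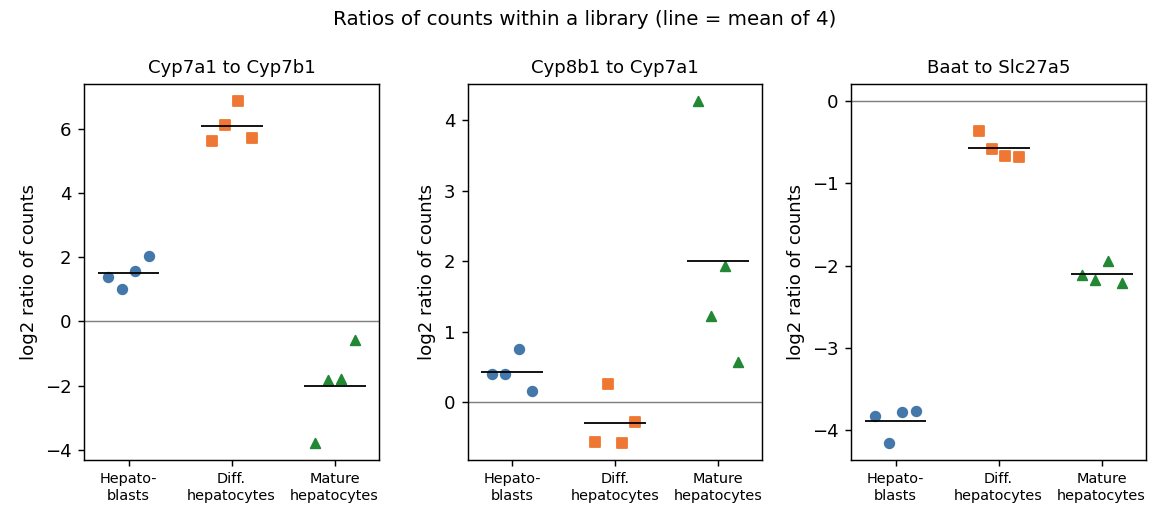
Log2 ratios of counts of 2 enzymes within each library, not divided by length, for the 4 replicates of each group (points, left to right) and their mean (line). The Cyp7a1 to Cyp7b1 ratio is highest in Diff. hepatocytes and negative in Mature hepatocytes, and the Baat to Slc27a5 ratio is lowest in Hepatoblasts.

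The sequences upstream of Cyp8b1, Akr1d1 and Cyp27a1 are shown because these 3 enzymes rose together from Hepatoblasts to Diff. hepatocytes and their RefSeq promoters were at hand. Each is the stretch of 250 bases that ends just before the RefSeq start site, 5′ to 3′ on the strand of the gene, in GRCm38.p6. Capitals mark matches on either strand to the motifs searched, which were TCAAGGNCA of NR5A2, CAAAGTCCA of HNF4A, the HNF1 site GTTAAT, the core nuclear receptor site AGGTCA and TATAAA. The site AGGTCA can lie inside longer nuclear receptor motifs.
Cyp8b1, chr9:121916306-121916555, minus strand: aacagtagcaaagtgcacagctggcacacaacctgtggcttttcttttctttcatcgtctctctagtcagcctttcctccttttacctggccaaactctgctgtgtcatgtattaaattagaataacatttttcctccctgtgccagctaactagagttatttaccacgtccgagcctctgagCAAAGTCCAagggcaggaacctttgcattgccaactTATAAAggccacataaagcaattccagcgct
Akr1d1, chr6:37529923-37530172, plus strand: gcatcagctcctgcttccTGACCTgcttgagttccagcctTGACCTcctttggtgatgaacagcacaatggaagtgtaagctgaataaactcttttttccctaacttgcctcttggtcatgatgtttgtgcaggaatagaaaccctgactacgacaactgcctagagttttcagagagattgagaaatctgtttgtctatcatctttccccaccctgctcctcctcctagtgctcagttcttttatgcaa
Cyp27a1, chr1:74713285-74713534, plus strand: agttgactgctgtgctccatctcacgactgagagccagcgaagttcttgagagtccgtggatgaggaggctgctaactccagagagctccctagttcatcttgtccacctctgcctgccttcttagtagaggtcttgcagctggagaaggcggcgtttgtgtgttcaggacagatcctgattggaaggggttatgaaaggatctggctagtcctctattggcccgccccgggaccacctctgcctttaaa
The Cyp8b1 stretch held the HNF4A motif 67 bases before the start site and TATAAA 31 bases before it. The Akr1d1 stretch held the nuclear receptor site, as its reverse complement, at 232 and 210 bases before the start site. No motif searched for was found in the Cyp27a1 stretch. Among 32851 promoter stretches of this length, 0.384% held the HNF4A motif, 1.39% the NR5A2 motif, 6.43% the HNF1 site, 14.0% the nuclear receptor site and 12.4% TATAAA. A match describes the letters and not the binding of a factor.

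Akr1d1 (ENSMUSG00000038641, chr6:37530173-37568815, plus strand), the reductase that saturates the A ring, had the smallest log2FC in size of the 9 between Diff. and Mature hepatocytes. Its levels were 8.22, 6.24, 11 and 15.3 CPM in Hepatoblasts. Diff. hepatocytes had 63.0, 115, 82.9 and 87.5 CPM. Mature hepatocytes had 173, 143, 158 and 189 CPM, above each Diff. hepatocyte library. The rise from Hepatoblasts to Diff. hepatocytes was 8.55-fold (log2FC 3.10, SE 0.25, adjusted p = 2.92e-07, edgeR). The log2FC between Diff. and Mature hepatocytes was -0.93 (95% interval -1.43 to -0.42, adjusted p = 0.00329, edgeR), which missed the fold threshold. Without Diff. hepatocytes replicate 2, the highest of its group, the log2FC was -1.10 and the gene was called lower.

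Hsd3b7 (ENSMUSG00000042289, chr7:127800604-127803802, plus strand), the dehydrogenase of the ring's second step, had 0 counts in all 12 libraries. A count of 0 allows up to 3 counts per library. Exons of the gene model Gm49388 on the same strand cover 62.0% of its exon bases, exons of 9430064I24Rik on the other strand cover 62.4%, and either covers 99.2%. Reads that fall on more than 1 gene can be left uncounted, and which strand setting of the counter was used is not given in the sources used here. Gm49388 also had 0 counts throughout and 9430064I24Rik had 3 to 25. Whether the overlap or a low level gave the counts of 0 was not tested, and no statement on the level of Hsd3b7 is made.

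Cyp27a1 (ENSMUSG00000026170, chr1:74713574-74737892, plus strand) encodes the mitochondrial sterol 27-hydroxylase. The Hepatoblast libraries had 5.93, 7.31, 8.13 and 8.82 CPM and the Diff. hepatocytes 71.9, 118, 91.9 and 100 CPM. In Mature hepatocytes the levels were 745, 612, 686 and 783 CPM. The 3 groups were separate, with log2FCs of 3.66 for Diff. hepatocytes against Hepatoblasts (SE 0.17, adjusted p = 2.29e-09, edgeR) and -2.89 for Diff. against Mature hepatocytes (SE 0.16, adjusted p = 5.84e-09, edgeR). Macrophages also express Cyp27a1. The 8 macrophage markers summed to 47.6 to 212 CPM in Hepatoblasts, 22.4 to 148 in Diff. hepatocytes and 98.5 to 192 in Mature hepatocytes, and none of the 8 was at 0 in all libraries of a group. These ranges overlap between all 3 groups, but 2 of the 8 markers, the Kupffer cell genes Clec4f and Vsig4, moved in the direction of Cyp27a1 in both comparisons with Mature hepatocytes. Their log2FCs were 4.37 and 7.21 for Mature hepatocytes against Hepatoblasts and -7.07 and -2.59 for Diff. against Mature hepatocytes. In Diff. hepatocytes against Hepatoblasts Clec4f was lower (-2.69) and Vsig4 higher (4.62), and the other 6 markers were not called in any comparison. Vsig4 had only 4, 0, 2 and 1 counts in the Hepatoblast libraries and passed the filter through the other groups. Its log2FCs against Hepatoblasts therefore rest on counts at the limit of detection. The part of macrophages in the Cyp27a1 level was not tested.

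Amacr (ENSMUSG00000022244, chr15:10981756-10996626, plus strand), the racemase that prepares the side chain for shortening, was not called higher in culture. It had 34.6, 47.3, 52.9 and 60.4 CPM in Hepatoblasts. The Diff. hepatocyte libraries had 35.2, 48.9, 45.8 and 41.5 CPM, and these ranges overlapped (log2FC -0.19, 95% interval -0.51 to 0.13, adjusted p = 0.296, edgeR). Mature hepatocytes had 239, 247, 218 and 240 CPM, 5.50-fold above Diff. hepatocytes (log2FC of Diff. against Mature hepatocytes -2.46, SE 0.16, adjusted p = 1.85e-08, edgeR). Per kb, Amacr was the most abundant of the 9 enzymes in Hepatoblasts at 18.7 ± 4.17 CPM per kb and rank 7 in Diff. hepatocytes at 16.4 ± 2.27. Of the 5 genes that carry out or serve peroxisomal side-chain shortening, 3 were higher in Diff. hepatocytes than in Hepatoblasts. All 5 were higher in Mature hepatocytes than in Hepatoblasts, and 4 were lower in Diff. than in Mature hepatocytes. Over all genes tested, 14.9%, 20.1% and 15.6% were called in these directions. Scp2, the thiolase and sterol carrier gene, was at 112 ± 17.6, 220 ± 35.3 and 3872 ± 393 CPM in Hepatoblasts, Diff. and Mature hepatocytes (log2FC of Diff. against Mature hepatocytes -4.13, adjusted p = 2.45e-10, edgeR). Acox2, the branched-chain oxidase gene, was at 75.0 ± 22.7, 210 ± 22.3 and 255 ± 63.2 CPM and was called higher in Diff. hepatocytes than in Hepatoblasts (log2FC 1.49). The transporter gene Abcd3 and Hsd17b4, the multifunctional enzyme gene, were called in all 3 comparisons, with log2FCs of 1.47 and 1.38 for Diff. hepatocytes against Hepatoblasts.

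Slc27a5 (ENSMUSG00000030382, chr7:12988346-12998192, minus strand), the bile acid coenzyme A ligase, had 24.5, 27.2, 39.9 and 41.9 CPM in Hepatoblasts. Diff. hepatocytes had 85.7, 154, 126 and 123 CPM, and Mature hepatocytes 1439, 1294, 1281 and 1609 CPM. Baat (ENSMUSG00000039653, chr4:49489422-49506557, minus strand), the amino acid transferase of the next step, had 1.71, 1.52, 2.88 and 3.05 CPM in Hepatoblasts. It had 66.4, 102, 79.5 and 77.0 CPM in Diff. hepatocytes and 334, 288, 333 and 347 CPM in Mature hepatocytes. For both genes the 3 groups were separate, but the size of the steps differed. Baat rose 35.5-fold from Hepatoblasts to Diff. hepatocytes (log2FC 5.15, SE 0.22, adjusted p = 1.28e-09, edgeR), close to the log2FC of 5.12 of Cyp39a1, and Slc27a5 rose 3.66-fold (log2FC 1.87, SE 0.20, adjusted p = 3.85e-06, edgeR). Against Mature hepatocytes the log2FC of Diff. hepatocytes was -2.00 for Baat (SE 0.18, adjusted p = 6.17e-07, edgeR) and -3.52 for Slc27a5 (SE 0.21, adjusted p = 1.27e-08, edgeR). The log2 ratio of Baat to Slc27a5 was accordingly -3.88 ± 0.18 in Hepatoblasts, -0.58 ± 0.14 in Diff. and -2.11 ± 0.12 in Mature hepatocytes, and all 3 differences had an exact permutation p of 0.0286 (adjusted 0.0367).

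**Figure D4:**
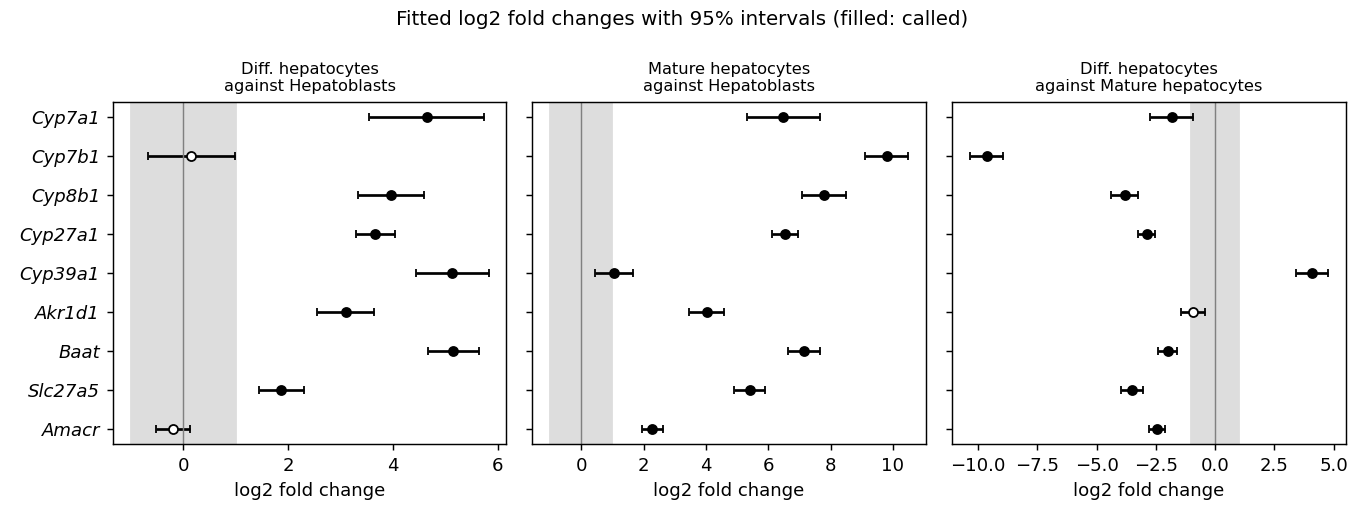
Log2 fold change of the 9 tested enzymes in the 3 comparisons with 95% intervals from edgeR, each panel with its own range. Filled points were called and the grey band spans a log2FC of -1 to 1. The intervals of Cyp7b1 and Amacr span 0 in the first panel, and Cyp39a1 alone lies to the right of 0 in the third.

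Among the 4 genes that supply taurine, Csad, Cdo1 and the taurine transporter gene Slc6a6 were higher in Diff. hepatocytes and in Mature hepatocytes than in Hepatoblasts. Csad and Cdo1 were lower in Diff. than in Mature hepatocytes. Over all genes tested, 14.9%, 20.1% and 15.6% were called in these directions. Cdo1, the cysteine dioxygenase gene, was at 104 ± 20.9, 439 ± 63.8 and 1291 ± 295 CPM in Hepatoblasts, Diff. and Mature hepatocytes. Of the electron donors of P450 enzymes, Por, which serves the microsomal hydroxylases, was at 110 ± 14.3, 820 ± 54.6 and 505 ± 221 CPM (log2FC of Diff. hepatocytes against Hepatoblasts 2.89, adjusted p = 7.38e-07, edgeR). Fdx1, the mitochondrial ferredoxin gene that serves CYP27A1, was called higher in Mature hepatocytes at 128 ± 19.5 CPM beside 19.5 ± 2.48 in Hepatoblasts, and Fdxr, its reductase, was lower both in Diff. hepatocytes (32.2 ± 5.15 CPM) and in Mature hepatocytes (30.4 ± 5.40 CPM) than in Hepatoblasts (73.5 ± 11.9 CPM), and was not called between Diff. and Mature hepatocytes. Cyp2c70, which makes the muricholic acids of mice, was at 20 ± 3.65, 184 ± 14.1 and 545 ± 152 CPM and was called in all 3 comparisons. Cyp46a1, the cholesterol 24-hydroxylase gene, was at 4.16 ± 1.56 CPM in Mature hepatocytes and under 1 CPM in the other groups, and Ch25h was not tested.

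Of 12 regulators of bile acid synthesis, 3 were higher and 1 lower in Diff. hepatocytes than in Hepatoblasts. In Mature hepatocytes 7 were higher and 1 lower than in Hepatoblasts, and 1 was higher and 6 lower in Diff. than in Mature hepatocytes. Over all genes tested, the shares called higher and lower were 14.9% and 14.0%, 20.1% and 24.7%, and 20.2% and 15.6% in the same order. The counts describe the list, and no test of the list was run. Nr1h4, the gene of the bile acid receptor FXR, was at 8.25 ± 2.34, 50.3 ± 4.47 and 185 ± 26.7 CPM in Hepatoblasts, Diff. and Mature hepatocytes. Nr0b2, which encodes the FXR-induced repressor SHP, was at 0.544 ± 0.170, 8.21 ± 2.11 and 63.4 ± 24.4 CPM, and its log2FC was 3.91 for Diff. hepatocytes against Hepatoblasts (SE 0.34, adjusted p = 4.51e-07, edgeR). Fgfr4, the receptor through which intestinal FGF15 represses Cyp7a1, was the one regulator called lower in Diff. hepatocytes than in Hepatoblasts. The Hepatoblast libraries had 37.3, 54.7, 62.2 and 61.8 CPM. Diff. hepatocytes had 6.23, 7.40, 5.42 and 7.44 CPM, and Mature hepatocytes had 61.2, 56.9, 62.2 and 66.3 CPM, so that the Diff. hepatocytes lay below all other libraries. Its log2FCs were -3.03 against Hepatoblasts and -3.22 against Mature hepatocytes (adjusted p = 7.91e-09 and 2.65e-09, edgeR). Klb, the co-receptor of FGFR4, was not called in any of the 3 comparisons and was at 105 ± 24.8, 61.9 ± 2.89 and 67.1 ± 21.5 CPM. With library totals in place of TMM factors it was called lower than in Hepatoblasts in Diff. hepatocytes (log2FC -1.07) and in Mature hepatocytes (log2FC -1.50). Hnf4a, an activator of Cyp7a1 and Cyp8b1, was at 409 ± 92.1, 619 ± 75.9 and 1087 ± 182 CPM and was called in Mature hepatocytes against Hepatoblasts alone (log2FC 1.41). Rxra, the partner receptor of FXR, was at 99.5 ± 13.6, 322 ± 20.4 and 750 ± 110 CPM and was called in all 3 comparisons. Onecut1, the gene of the liver factor HNF6, was at 14.2 ± 3.46, 18.3 ± 1.11 and 75.8 ± 38.7 CPM and was called in both comparisons with Mature hepatocytes. Nr5a2, the gene of LRH-1, was not called, with 63.0 ± 13.3, 53.0 ± 5.04 and 93.8 ± 20.5 CPM.

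Of 10 bile acid transporters, Slc51a was not tested, and Slc51b, with 0 counts in all Hepatoblast libraries and 7 to 12 in the Diff. hepatocytes, passed the filter through the Diff. hepatocytes and is left out of the counts. Of the other 8, 7 were higher and none lower in Diff. hepatocytes against Hepatoblasts. In Mature hepatocytes against Hepatoblasts, 7 were higher and 1 lower. Between Diff. and Mature hepatocytes, 1 was higher and 5 lower in Diff. hepatocytes. Over all genes tested, the shares called higher and lower were 14.9% and 14.0%, 20.1% and 24.7%, and 20.2% and 15.6% in the same order. Slco1a1, kept among the 8, had 3, 5, 8 and 8 counts in the Hepatoblast libraries. It too passed the filter only through the other groups, so that its calls against Hepatoblasts are not independent of the filter. Slc10a1, the sodium-dependent uptake carrier NTCP, was at 4.76 ± 2.26, 383 ± 78.7 and 812 ± 54.2 CPM in Hepatoblasts, Diff. and Mature hepatocytes (log2FC of Diff. hepatocytes against Hepatoblasts 6.33, SE 0.30, adjusted p = 2.27e-09, edgeR). Slco1a1, an organic anion uptake carrier gene, was at 0.193 ± 0.0832, 4.49 ± 1.40 and 660 ± 64.4 CPM, and its log2FC between Diff. and Mature hepatocytes was -7.20 (SE 0.23, adjusted p = 2.68e-11, edgeR). Slco1b2, another such carrier gene, was at 3.52 ± 1.5, 92.1 ± 4.33 and 1331 ± 202 CPM. Abcc4, an efflux pump of the basolateral membrane, was at 12.9 ± 1.48, 77.1 ± 24.1 and 3.24 ± 0.881 CPM and was the one transporter called higher in Diff. than in Mature hepatocytes (log2FC 4.57, SE 0.26, adjusted p = 6.52e-09, edgeR), as Cyp39a1 was among the enzymes. The canalicular export pump gene Abcb11 (BSEP) was at 55.6 ± 15.0, 477 ± 84.5 and 925 ± 261 CPM.

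**Figure D5:**
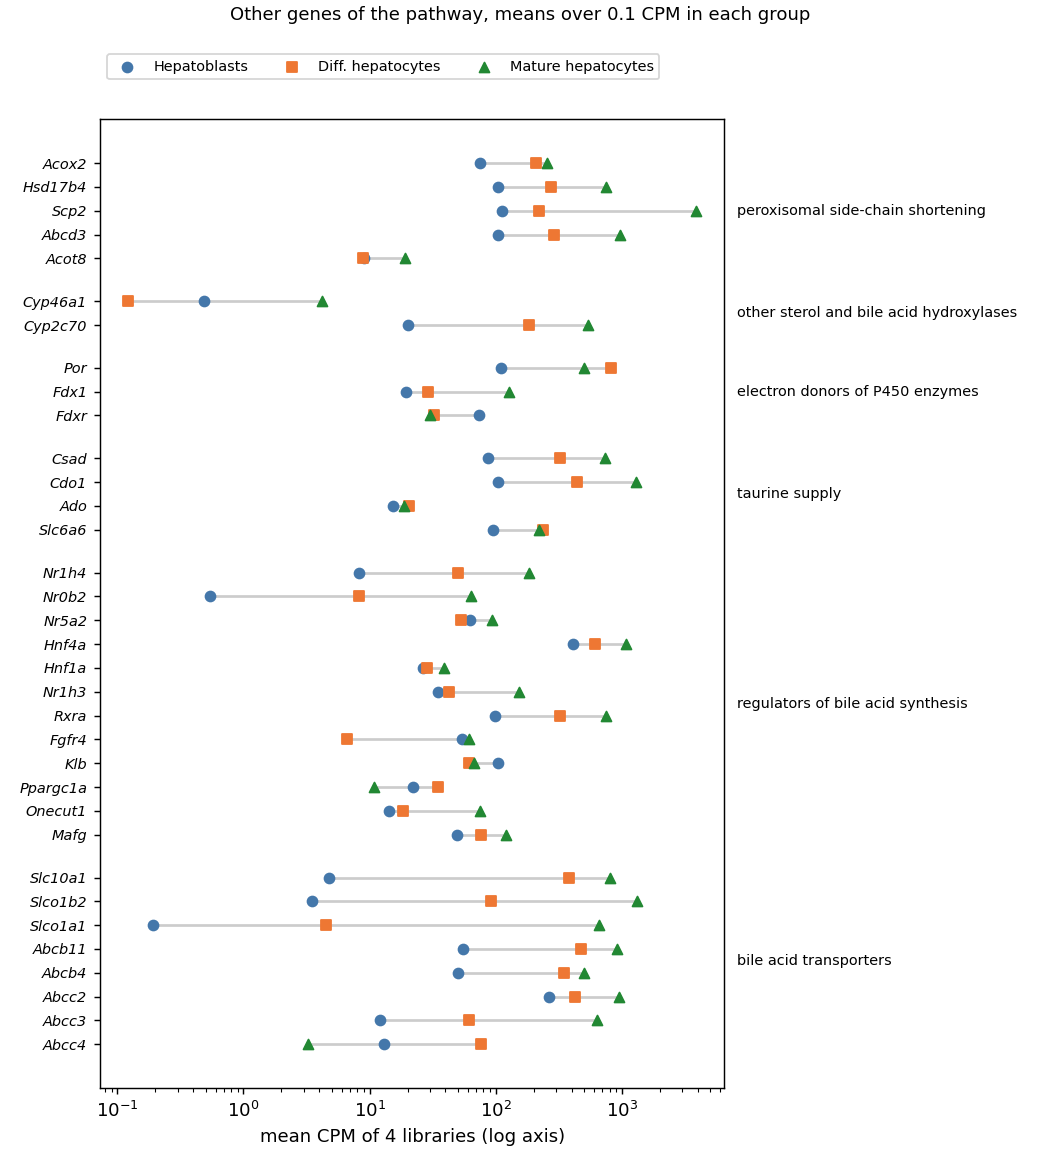
Mean CPM over 4 libraries, on a log axis, of the other genes of the pathway in Hepatoblasts (circles), Diff. hepatocytes (squares) and Mature hepatocytes (triangles), not divided by length and without genes under 0.1 CPM in a group. Fgfr4 has its lowest mean in Diff. hepatocytes, and Abcc4 its highest.

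Libraries of a group differed in step over the enzymes. In Hepatoblasts, replicate 4 had the highest level of 8 of the 9 enzymes and replicate 1 the lowest of 6. Replicate 1 also had the highest erythroid, macrophage and endothelial markers of its group. Slc4a1 was at 766 CPM beside 84.9 to 148, Csf1r at 57.4 beside 12.7 to 15.4 and Stab2 at 41.7 beside 9.91 to 18.5. The 8 erythroid markers summed to 293 to 2410 CPM in Hepatoblasts, 6.09 to 24 in Diff. hepatocytes and 135 to 185 in Mature hepatocytes. In Diff. hepatocytes, replicate 1 had the lowest level of 7 of the 9 and replicate 2 the highest of 7. Diff. hepatocytes replicate 1 had the highest level of its group of all 5 bile duct markers, with Krt7 at 90.2 CPM beside 20.6 to 32.4. It also had the highest level of 5 of the 6 mesenchymal markers, with Col1a1 at 1183 CPM beside 396 to 714. Dcn was the exception at 40.7 CPM beside 41.8 to 52.2. Each macrophage marker was highest in this library of the group too, with Csf1r at 44.2 CPM beside 8.22 to 19.8. The 5 bile duct markers summed to 12.9 to 15.1 CPM in Hepatoblasts, 70 to 213 in Diff. hepatocytes and 15.4 to 40.7 in Mature hepatocytes. They did not move as one. Krt7, Krt19 and Epcam were higher in every Diff. hepatocyte library than in any Hepatoblast library. Sox9 was at 3.22 to 6.02 CPM in Hepatoblasts and 4.29 to 5.45 in Diff. hepatocytes. In each Mature hepatocyte library Spp1 (5.28 to 29.3 CPM) and Sox9 (4.94 to 16.3 CPM) were the highest of these markers. The 6 mesenchymal markers summed to 440 to 855, 695 to 1864 and 41.8 to 60.4 CPM in the same order of groups. The 6 endothelial markers summed to 32.2 to 126, 4.75 to 9.86 and 99.5 to 191 CPM. None of these markers was at 0 in all libraries of a group, and their part in the enzyme levels was not tested. In Diff. hepatocytes against Hepatoblasts, 7 enzymes were called higher without either library as well.

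The order of the enzymes by level per kb of exon also changed between the groups. Amacr and Slc27a5 were highest in Hepatoblasts at 18.7 ± 4.17 and 13.7 ± 3.6 CPM per kb, and Cyp7b1 was lowest at 0.279 ± 0.0526. The ranges of Amacr and Slc27a5 overlapped between libraries, but within each library Amacr was the higher. In Diff. hepatocytes Cyp39a1 led at 162 ± 20.1 CPM per kb, with its lowest library above the highest of Slc27a5 (50.1 ± 11.4). Cyp27a1 (43.9 ± 8.76) and Baat (41.8 ± 7.72) came next. Their ranges overlapped that of Slc27a5 between libraries, but Slc27a5 was above both within each library. In Mature hepatocytes Slc27a5 led at 577 ± 62.8 CPM per kb, and Cyp27a1 (325 ± 34.3), Cyp8b1 (275 ± 80.4) and Cyp7b1 (251 ± 91.2) followed with overlapping ranges. Cyp39a1 had the lowest mean of the 9 there at 9.61 ± 3.91 CPM per kb. Its range overlapped that of Cyp7a1 (38.9 ± 23.6) between libraries, but within each library Cyp39a1 was below Cyp7a1.

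Genes with the most similar pattern were found by Pearson's r of log2 CPM over the 12 libraries, among 8696 genes of at least 10 CPM on average. These are descriptions, since the 12 points are 3 groups that stand apart and share their library factors. Cyp39a1 was nearest to Tpt1 (r = 0.992), Cyp7a1 to Rnf14 (r = 0.992), Cyp7b1 to the urinary protein gene Mup3 (r = 0.998), Cyp8b1 to Adipor2 (r = 0.998) and Baat to Gc (r = 0.998).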

How the data were processed

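The series measured RNA in 12 libraries, with 4 biological replicates in each of the groups Hepatoblasts, Diff. hepatocytes and Mature hepatocytes, assigned by their labels. The authors made poly(A) libraries described as strand-specific, sequenced single reads of 75 bases and used STAR (2.5.2b in the submitters' processing notes) to map the reads to GRCm38 and count them per gene of Ensembl release 92. The counts are as deposited by the authors and carry no normalization. STAR's strand setting is not given in the sources used here. Symbols, positions and exon lengths came from GENCODE release M21, in which 53620 of the 53715 identifiers were found, and promoters from RefSeq, which matched 4 of the 10 enzymes.

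The tests were run in R 4.3.3 with edgeR 4.0.16. A gene was kept with more than 10 counts in at least 1 library. The quasi-likelihood test was fitted to all 12 libraries with TMM factors and group as its only term. The SEs and 95% intervals were derived from the log2FC and the F statistic of that test. Ratios of 2 enzymes, with 0.5 added to each count, and log2 CPM values of single enzymes (prior count 2) were compared with two-sided exact permutation tests over 70 assignments. The scripts were checked on simulated counts. Between libraries of a group the chi-square per gene ranged from 6.43 to 99.2, so none was counted as a duplicate, and errors are between replicates.

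The enzymes and the other gene lists were chosen with earlier results of these data known. The text gives each enzyme and, from each list, the 3 called genes with the largest log2FC in size per comparison. Hnf4a, Nr5a2, Klb and Abcb11 were added for their roles, with their values known. DESeq2 1.42.0, other scalings, filters and thresholds, a replicate block and leaving out each library were alternatives. A comparison of protein sequences was planned and not run.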

Additional observations from a re-analysis of the deposited data

Results flagged for a closer look

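Among the 36 sets of 4 replicates examined (9 enzymes and 3 ratios in 3 groups), one replicate stood far from the others. The log2 ratio of Baat to Slc27a5 was -4.15 in Hepatoblasts replicate 2 and -3.83 to -3.77 in the other 3 replicates. Chance flags about 1 in 20 such sets, which is 1.8 of 36. The replicate lay farther from the Diff. and Mature hepatocytes than the rest of its group.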

How the results depend on the processing

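The number of enzymes called in each direction stayed within 1.5 times its value in all alternatives, and all 9 ratio comparisons kept their direction. Their exact permutation test was repeated only with 2 counts added in place of 0.5, where 7 again had p = 0.0286 and 2 again had p = 0.0571 before adjustment. The other alternatives gave ratio differences with no test. For the enzymes called higher in Diff. hepatocytes against Hepatoblasts it was 7 in each of 23 alternatives, for Mature hepatocytes against Hepatoblasts 8 to 9, and for those lower in Diff. than in Mature hepatocytes 6 to 8. Cyp39a1 in Mature hepatocytes against Hepatoblasts and Cyp7a1 in Diff. against Mature hepatocytes lost their calls when the fold threshold was part of the test (glmTreat adjusted p = 0.407 and 0.0323; DESeq2 adjusted p = 1 and 0.2), and with library totals in place of TMM factors (log2FC 0.21 and -1.32). Library totals moved the median log2FC of all genes to -0.34, -1.0 and 0.62 in the 3 comparisons. Relative directions turned for Cyp7b1 in Diff. hepatocytes against Hepatoblasts (-0.16), for Nr5a2 (-0.28) and Fgfr4 (-0.65) in Mature hepatocytes against Hepatoblasts and for Klb in Diff. against Mature hepatocytes (0.43) with library totals. With the 50 most abundant genes taken out of the totals, Nr5a2 was at -0.10, Fgfr4 at -0.47 and Klb at 0.45, and with single libraries left out Klb ranged from -0.30 to 0.03, the latter without Mature hepatocytes replicate 4. Klb gained calls against Hepatoblasts with library totals (-1.07 in Diff. and -1.50 in Mature hepatocytes), with the reduced totals (-1.32 in Mature hepatocytes) and at an adjusted p under 0.05 with no fold threshold (-0.77 and -0.65). None of these 4 genes was called in the comparisons named in the main analysis, and the cause was not tested. Among the other genes described, calls were lost in up to 5 of 23 alternatives for Acox2, Abcd3, Fdxr, Slc6a6 and Hnf4a against Hepatoblasts and for Hsd17b4, Csad, Cdo1, Cyp2c70, Rxra and Slc10a1 between Diff. and Mature hepatocytes. The list counts also rest on genes not described. In Mature hepatocytes against Hepatoblasts, the regulators Ppargc1a (called lower) and Mafg lost their calls in 6 and 3 alternatives. The peroxisomal gene Acot8 lost its call there in 5. Between Diff. and Mature hepatocytes, Acot8 lost its call in 4 and the transporter gene Abcc2 in 5. Shares of the 3 hydroxylases from counts not divided by length, an alternative added after seeing the data, were 10.8% (Hepatoblasts) and 8.45% (Diff. hepatocytes) for Cyp7a1 and 91.4% for Cyp39a1 in Diff. hepatocytes. In Mature hepatocytes they were 21.6% for Cyp7a1, beside 13.2% per length, and 74.1% for Cyp7b1, beside 83.3%.

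The replicate numbers were not taken as pairs, although Xist and Ddx3y followed them across the embryo-derived groups, as described below. The correlation of same-numbered deviations was -0.06 to 0.32 between Hepatoblasts and Diff. hepatocytes, over 0.1 in 3 of 4 pairs, and at most 0.09 in the other comparisons. With the replicate number as a block, 7 enzymes were called higher in Diff. hepatocytes than in Hepatoblasts, and the log2FC of Cyp7a1 between Diff. and Mature hepatocytes was -1.58. The counts of Cyp7b1 in the embryo-derived groups, 9 to 23 per library, limit what can be said of a difference there.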

Other observations

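In Mature hepatocytes, Cyp7a1 and Nr0b2 were ordered oppositely over the 4 replicates. Replicates 1 to 4 had 38.3, 234, 128 and 249 CPM of Cyp7a1 and 96.7, 52.8, 64.1 and 39.9 CPM of Nr0b2, which encodes SHP. Cyp8b1 had the order of Nr0b2 at its ends, with 742 CPM in replicate 1 and 365 CPM in replicate 4. A part of SHP in the level of either enzyme was not tested. The 4 libraries are too few for a correlation, and the genes were picked after their values were seen. Time of day and feeding state at collection, on which these genes are known to depend, are not given in the sources used here.

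Xist and Ddx3y followed the replicate number across the embryo-derived groups. Replicate 2 had the highest Xist of its group in Hepatoblasts (567 CPM) and in Diff. hepatocytes (660 CPM), and the lowest Ddx3y in both (11.3 and 13.8 CPM). For each gene the replicates had the same full order in both groups. This was seen after the data were examined and was not tested. Whether libraries of the same number came from the same embryos is not given in the sources used here. The main tests took these libraries as unpaired.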
